A study of Mus musculus with 6 samples.

Results

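The genes described here are 221 protein-coding genes that start between 24 and 36 Mb on mouse chromosome 17 (mm10), out of 43430 genes counted in the series. They were taken by position, with at least 300 reads over the 6 libraries, and the genes of the H2 histocompatibility family, both classical and nonclassical, of the ribosomal, NADH dehydrogenase and proteasome families and 9 further genes were dropped by name, 31 genes in all. The members were chosen by position and read count, and the interval was selected on the KO against WT differences of these same 6 libraries, to look for runs of neighbours shifted together. The KO against WT values of these genes are therefore a description of the libraries, with no test read from them. Counted genes of any kind that start in the interval number 567, and 252 met the position, class and count rule before the drop. The first member was Kctd5 (start 24047734) and the last Gnl1 (start 35979851), with log2 fold changes of 0.06 and -0.03. The nearest genes outside that met the same count rule were Elob (start 23824740, -0.03) and H2-T24 (start 36005695, 0.01). Noxo1 had the fewest counts of the members, 310 (-0.55), and Zfp811 was left out with 286 (0.22).

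RNA was sequenced from CD4+CD8+ double-positive thymocytes sorted by flow cytometry from C57BL/6 mice. The KO group (3 libraries) had the genotype Mettl14fl/fl; CD4-Cre+, and the WT group (3 libraries) was labelled WT and came from littermates, whose floxed and Cre alleles the labels do not give. CD4-Cre acts in cells that express the Cd4 promoter fragment, which in the thymus begins at about the stage sampled here. Whether the 3 libraries of a group stem from 3 animals is not in the labels, and the spread within a group may be partly technical. Mettl14 forms, with Mettl3, the enzyme that places N6-methyladenosine on messenger RNA.

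This stretch of chromosome 17 is among the gene-dense parts of the mouse genome. It opens with a block of housekeeping, signalling and trafficking genes and ends in the major histocompatibility complex, where genes of antigen presentation lie among genes of transcription, RNA processing and complement. The genes belong to many pathways, and are taken below by role rather than by position.

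Libraries held 29500254 to 33377056 counts in genes, and the 221 members took 2.24% to 2.31% of them. Levels below are CPM, a gene's counts relative to its library's total after TMM scaling, which adjusts for composition, and they compare libraries for a gene, not genes with each other. Mettl14 (chromosome 3, 123364645 to 123385990) was at 52.1, 58.8 and 55.8 CPM in WT and at 42.2, 40.3 and 36.4 CPM in KO, 28.7% lower (log2 fold change -0.49 ± 0.09, SE; edgeR adjusted p = 0.289). The libraries did not overlap. Defining genes of double-positive cells summed to 13228 to 14864 CPM in WT and 13916 to 14760 CPM in KO, with all 7 markers found. The 4 B cell markers summed to 17.01 to 24.9 CPM in WT and 20.4 to 28.1 CPM in KO, nearly all from Cd79b. The 5 myeloid markers summed to 79.0 to 82.1 and 80.6 to 86.5 CPM, with Csf1r and Itgax at or under 0.43 CPM. Lyz2, of the same list, was at 0.29, 0.73 and 1.06 CPM in WT and at 0.50, 0.91 and 4.28 CPM in KO, so KO3 stood above the other 5 libraries, and its part in the values below was not tested. The 4 natural killer and gamma-delta markers summed to 1.26 to 1.88 CPM in WT and 3.25 to 4.28 CPM in KO, mostly from Tcrg-C1, and their part in the values below was not tested. The 4 stromal and endothelial markers summed to 153 to 180 and 149 to 160 CPM, nearly all from Pecam1, and Pdgfra was at 0 counts in all 6 libraries. Epcam, of the same list, was higher in KO without overlap. It was at 3.54, 2.39 and 2.77 CPM in WT and at 3.68, 5.18 and 3.998 CPM in KO, and its part in the values below was not tested. Red cell markers were at or under 0.36 CPM in sum. In sorted bulk RNA, fewer cells of a type and less RNA per cell cannot be told apart.

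Across the interval the KO libraries were neither higher nor lower as a block. All 221 members passed the filter on low counts. The median log2 fold change was 0.01, with quartiles of -0.09 and 0.11 and a range from -1.46 to 1.004, and 121 members had a positive and 100 a negative value. Over all 13039 genes tested the median was -0.0040. In 39 members (17.6%) the 3 KO libraries lay entirely above or entirely below the 3 WT libraries, where 12.0% of the 10087 protein-coding genes under the same count rule did so and 12.6% of all genes tested. Of the 39, 21 were higher and 18 lower in KO, beside 7.27% higher and 4.72% lower over those protein-coding genes and 6.59% higher and 5.97% lower over all genes tested. With upper-quartile scaling, which moved the median of the members to -0.01, the split was 20 higher and 25 lower among 45. Those 45 were 20.4% of the members, beside 12.2% of all genes tested. Since the same comparison proposed the interval, nothing is read from these shares.

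The plot of members in chromosomal order shows the values scattered on both sides of 0 along the whole interval. Of the protein-coding genes of chromosome 17 below 24 Mb, 13.9% of 79 were without overlap, above 36 Mb 17.4% of 213, and on the other chromosomes 11.7% of 9543. Within the interval, 18 of 61 members between 24 and 26 Mb had groups that did not overlap, 6 of 30 between 26 and 28 Mb, 3 of 25 between 28 and 30 Mb, 2 of 10 between 30 and 32 Mb, 3 of 37 between 32 and 34 Mb and 7 of 58 between 34 and 36 Mb. The first of these bins held 8 members higher and 10 lower. Absolute log2 fold changes over 0.5 occurred in 16 members (7.24%), beside 3.44% of protein-coding genes under the same count rule.

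**Figure D1:**
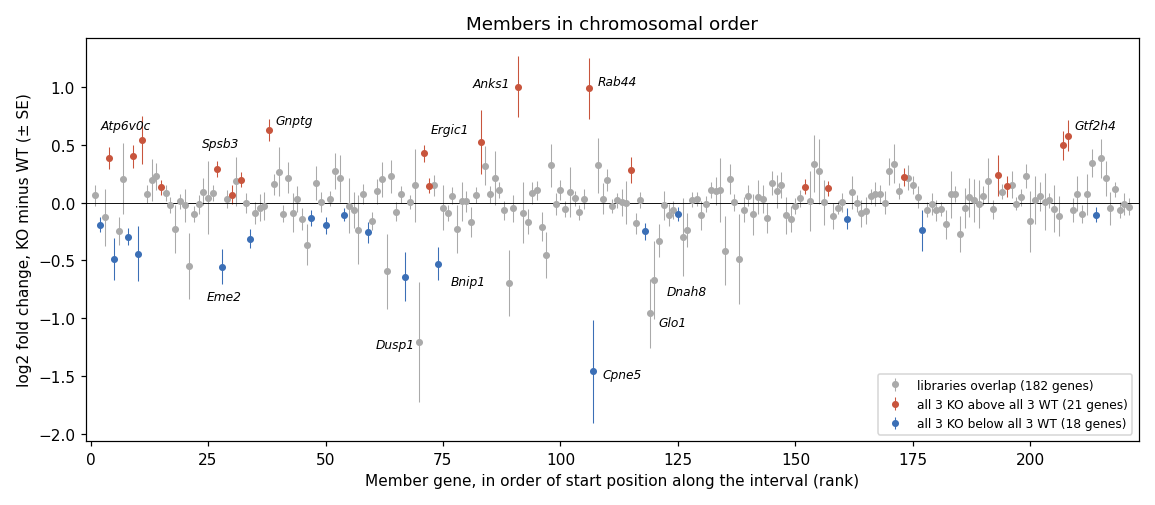
Log2 fold change, KO minus WT, of the 221 members against their rank in start position, with bars of 1 standard error; colours mark members whose 3 KO libraries all lay above (21) or all below (18) the 3 WT libraries. Values of either sign are mixed along the rank axis, and at most 2 points of the same colour are direct neighbours in rank. Between Gnptg and Ergic1 the coloured points are Fam173a, Jmjd8, Rhot2, Pigq and Fam234a, all lower in KO, with members that overlap among them.

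Calls by a statistical threshold were few. At an adjusted p under 0.05, edgeR's quasi-likelihood test called 0 of the 221 members, where it called 5 of 13039 genes (0.0383%), and the smallest adjusted p of a member was 0.255, for Gnptg. At an unadjusted p under 0.05 it counted 29 members, beside 6.72% of all genes, and under 0.01 it counted 14, beside 1.51%. DESeq2 called 4 members (Ergic1, Gnptg, Gtf2h4 and Vars2; 0.681% of all genes it tested) and limma-voom called 0 (0.0537%). The authors' deposited table gave an adjusted p under 0.05 for 5 members, Bnip1, Ergic1, Glo1, Gnptg and Gtf2h4, beside 0.762% of its genes.

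Runs of neighbours shifted together held at most 11 genes by sign, and their lengths are not compared with those on other chromosomes. Ordered by start, the members formed 106 runs of equal sign, and 52 of these were a single gene. Neighbouring members had the same sign in 115 of 220 pairs (52.3%), and neighbouring protein-coding genes of other chromosomes in 51.8%. The longest run held 11 genes, Rxrb, Col11a2, Brd2, Gpsm3, Pbx2, Ager, Rnf5, Agpat1, Egfl8, Ppt2 and Prrt1, all with positive values and a median of 0.10. Of these, Agpat1 was the sole gene whose groups did not overlap, and Gpsm3 had a value of 2.7e-06, so its sign carries no information. The next run held 10 genes with negative values, Btbd9, Glo1, Dnah8, Abcg1, Slc37a1, Wdr4, Pknox1, U2af1, Sik1 and Rrp1b, with a median of -0.24. Btbd9 and U2af1 were the members of that run without overlap.

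When a run was required to hold neighbours that each had no overlap in the same direction, the longest had 2 genes. There were 2 such runs, Ergic1 with Atp6v0e and Vars2 with Gtf2h4, both higher in KO, and none was lower. In 8 neighbouring pairs both genes had no overlap between groups (3.64% of pairs, beside 1.59% on other chromosomes). The directions were the same in 2 of the 8, and in 91 of 151 such pairs on other chromosomes, which were not compared by a test. They were opposite in 6: Atp6v0c higher and Tbc1d24 lower, Abca3 lower and Rnps1 higher, Rnps1 higher and Eci1 lower, Eci1 lower and Dnase1l2 higher, Spsb3 higher and Eme2 lower, and Rab44 higher and Cpne5 lower. The groups of Atp6v0c and Rnps1 overlapped once the reads of their copies, described below, were added.

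Vars2 and Gtf2h4 lie on the same strand with 137 bases between them. Vars2, the valyl-tRNA synthetase of mitochondria (35655634 to 35667592, minus strand), was at 102.8, 85.7 and 100.4 CPM in WT and 161.2, 127.2 and 119.2 CPM in KO. Gtf2h4, a subunit of the general transcription and DNA repair factor TFIIH (35667730 to 35673739, minus strand), was at 163.5, 129.4 and 171.8 CPM in WT and 272.6, 209.7 and 212.9 CPM in KO. For each gene the lowest KO library stood above the highest WT library, and for both the highest library was KO1 and the lowest WT2. Their log2 fold changes were 0.50 ± 0.13 and 0.58 ± 0.14 (SE, n = 3 against 3).

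The other pair, Ergic1 and Atp6v0e, is separated by 19464 bases on the plus strand. Ergic1, a membrane protein that cycles between the endoplasmic reticulum and the Golgi (26561489 to 26656931), was at 30.3, 31.1 and 29.7 CPM in WT and 42.0, 41.4 and 39.1 CPM in KO (0.43 ± 0.07). The spread within each group was small beside the gap, with SDs of 0.74 and 1.56 CPM. Atp6v0e, a small membrane subunit of the proton pump that acidifies lysosomes (26676396 to 26699644), was at 57.1, 59.1 and 58.2 CPM in WT and 62.8, 66.3 and 63.9 CPM in KO (0.15 ± 0.06).

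Of 18 trafficking and lysosomal genes, 7 were without overlap, 3 higher and 4 lower (median log2 fold change -0.0041). The shares of such genes among all genes tested (12.6%) and protein-coding genes under the count rule (12.0%) stand beside this and each list that follows, and since the lists differ in size and were not compared by a test, they are not ranked. Gnptg, the accessory subunit of the enzyme that marks lysosomal hydrolases with mannose phosphate (25233331 to 25240124, minus strand), was not on that list. It stood at 28.04, 31.0 and 27.3 CPM in WT and 46.5, 46.9 and 40.1 CPM in KO, 1.55 times the WT mean (0.63 ± 0.09). Its lowest KO library was well above its highest WT library. Gnptg overlaps Unkl on the opposite strand, and since the strand setting of the counting is not given in the sources used here, reads of the 2 genes cannot be told apart with certainty.

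Bnip1 and Tbc1d24 were the trafficking members with the largest differences. Bnip1, a SNARE protein of the endoplasmic reticulum (26781079 to 26792565, plus strand), was at 29.5, 28.1 and 21.8 CPM in WT and 17.1, 20.8 and 17.1 CPM in KO (-0.53 ± 0.14). WT3 came within about 1 CPM of KO2. Tbc1d24, which takes part in synaptic vesicle trafficking (24175431 to 24205562, minus strand), was at 8.28, 9.54 and 11.5 CPM in WT and 5.97, 6.91 and 7.996 CPM in KO (-0.49 ± 0.18). Abca3, a lipid transporter of lysosome-related organelles (24351950 to 24410201, plus strand), was at 106.2, 97.2 and 99.95 CPM in WT and 78.6, 86.9 and 81.9 CPM in KO (-0.29 ± 0.07). Abca3 overlaps D330041H03Rik on the opposite strand. Rhot2, a GTPase of the outer mitochondrial membrane, was the last of the 7, with WT from 104.5 to 108.2 CPM and KO from 97.8 to 101.7 CPM.

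**Figure D2:**
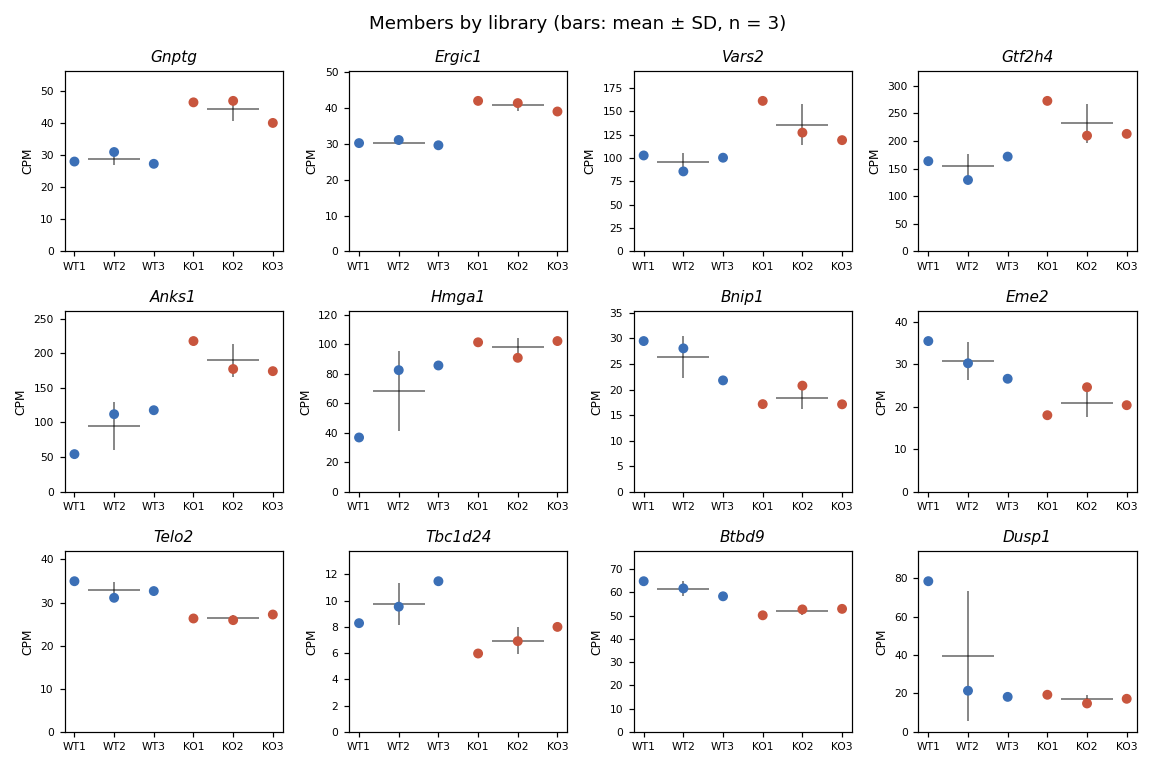
CPM of 12 members in each of the 6 libraries (WT blue, KO red; horizontal bars are group means and vertical bars 1 SD, n = 3; axes start at 0). Ergic1, Gnptg and Telo2 show tight groups, while in Anks1, Hmga1 and Dusp1 the library WT1 stands away from WT2 and WT3.

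Among 22 genes of RNA processing and decay, 2 were without overlap and higher and 3 were without overlap and lower, and 15 of the 22 had negative values (median -0.06). Cmtr1, which methylates the first nucleotide next to the cap of messenger RNA (29660595 to 29705979, plus strand), was at 19.4, 23.9 and 23.5 CPM in WT and 29.0, 27.0 and 25.3 CPM in KO (0.29 ± 0.11). It overlaps Ccdc167 on the opposite strand. The 3 lower genes were U2af1, which recognises the splice acceptor, Dhx16, a splicing helicase, and Wdr46, a nucleolar protein, with values of -0.10, -0.10 and -0.14. Without WT2 those of Dhx16 and Wdr46 were -0.06 and -0.08, and without KO3 that of Dhx16 was -0.07. Rnps1 is described with its copy below.

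Of 22 chromatin and transcription factor genes, Hmga1, Cramp1l and Daxx were higher without overlap and 0 were lower, with a median of 0.04. Daxx, a histone chaperone, was at 90.0 to 93.4 CPM in WT and 94.8 to 105.6 CPM in KO. Pbx2, a homeodomain cofactor (34591266 to 34597400, plus strand), had overlapping groups, with 138.4, 155.3 and 188.9 CPM in WT and 209.3, 183.9 and 189.6 CPM in KO (0.27 ± 0.12). The value was 0.18 without WT1 and 0.41 without WT3. The 13 zinc finger genes on the list all had overlapping groups, and the positive values furthest from 0 were 0.20 for Zfp871 and 0.17 for Zfp81. Without WT1 they were 0.08 and 0.09, and without WT3 Zfp871 was at 0.36.

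In the list of kinases, phosphatases and lymphocyte signalling, 3 of 21 members were higher without overlap and 0 lower (median 0.02). Anks1, an adaptor of Eph receptors (27909340 to 28062600, plus strand), had the highest log2 fold change of any member. It was at 54.2, 112.0 and 117.7 CPM in WT and 217.7, 177.3 and 174.2 CPM in KO (1.004 ± 0.26). WT1 lay far below the other WT libraries, and without it the value was 0.72. Dusp1, a phosphatase induced by mitogen and stress signals (26505590 to 26508519, minus strand), was at 78.5 CPM in WT1, 21.4 in WT2 and 18.2 in WT3, and at 19.3, 14.8 and 17.2 CPM in KO. A single library made its difference: the log2 fold change was -1.21 ± 0.52 with WT1 and -0.21 without it.

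WT1 was the highest or lowest of the 6 libraries for 57.0% of the members and for 53.5% of all genes tested. The other 5 libraries were at an extreme for 23.1% to 36.7% of the members. For 6 of the 13 members of DNA repair, replication and cell division, WT1 was the lowest library, and for 3 the highest. Of all 221 members it was the lowest for 64 and the highest for 62. Ccnf, a cyclin of late cell cycle, was at 93.1 CPM in WT1 and 140.9 to 228.7 CPM in the other 5, and Tubb5, a beta-tubulin, at 1379 and 1658 to 2026 CPM. Kifc1, a mitotic kinesin, was at 66.5 CPM in WT1 and 87.2 to 114.4 CPM elsewhere. None of Ccnf, Tubb5 and Kifc1 differed between genotypes without overlap. Their part in the other values was not tested.

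Eme2 was the single member of the repair list without overlap. Eme2, a subunit of an endonuclease that cuts branched DNA (24888486 to 24895087, minus strand), was at 35.4, 30.2 and 26.5 CPM in WT and 18.0, 24.6 and 20.3 CPM in KO (-0.55 ± 0.15). It overlaps Spsb3, a substrate receptor of a ubiquitin ligase, over 3667 bases on the opposite strand. Spsb3 (24886643 to 24892152, plus strand) was at 108.1, 100.7 and 104.1 CPM in WT and 136.0, 126.6 and 121.0 CPM in KO (0.29 ± 0.07). The overlapping genes thus had opposite directions, and reads of the shared stretch cannot be assigned with certainty. In all, 42 members overlap a counted gene on the opposite strand. Fance, of the Fanconi anaemia core complex, had overlapping groups (-0.21 ± 0.12, and -0.32 without WT3).

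Of 7 regulators of mTOR and Wnt signalling, Telo2 and Pdpk1 were lower without overlap and 0 were higher (median 0.0031). Telo2, which helps assemble mTOR and related kinases (25099570 to 25115967, minus strand), was at 34.9, 31.1 and 32.7 CPM in WT and 26.3, 25.9 and 27.2 CPM in KO (-0.31 ± 0.08). Pdpk1, the kinase that activates Akt, was at 315.1, 295.2 and 327.1 CPM in WT and 278.4, 267.8 and 276.0 CPM in KO (-0.19 ± 0.06). Mlst8, a subunit of the mTOR complexes, went the other way with overlapping groups (0.23 ± 0.12), at 42.8 to 52.8 CPM in WT and 49.9 to 64.2 CPM in KO. Without KO3, its highest library, the value was 0.12. Tsc2, the brake on mTOR, stood among the 5 members of this list whose groups overlapped.

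Of 19 mitochondrial and metabolic genes, Agpat1 and Mrps34 were higher without overlap and Eci1 lower (median 0.04). Agpat1, an enzyme of phospholipid synthesis (34604262 to 34613449, plus strand), was at 84.7, 81.8 and 93.9 CPM in WT and 102.1, 106.0 and 96.5 CPM in KO (0.23 ± 0.08). Eci1, of fatty acid oxidation, was at 2.03 to 2.72 CPM in WT and 1.39 to 1.83 CPM in KO.

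The remaining members named by size were on no list. Pigq, which acts in the first step of making GPI anchors (25926427 to 25944510, minus strand), was at 75.8, 78.3 and 71.6 CPM in WT and 55.3, 68.4 and 65.1 CPM in KO (-0.26 ± 0.09, and -0.17 without KO1). Btbd9 (30215524 to 30576287, minus strand) was at 64.8, 61.7 and 58.3 CPM in WT and 50.1, 52.6 and 52.9 CPM in KO (-0.25 ± 0.07). Jmjd8, which overlaps Stub1 and Mir3082 on the opposite strand, had a value of -0.20 ± 0.07. Dnase1l2, a DNase (24440081 to 24443105, minus strand), was at 5.21, 6.93 and 8.81 CPM in WT and 10.3, 11.0 and 9.20 CPM in KO (0.54 ± 0.21). Rab44 and Cpne5, neighbours on opposite strands, were chosen after their values were seen. Rab44 was at 1.46, 1.94 and 2.49 CPM in WT and 4.58, 3.997 and 3.13 CPM in KO (0.99 ± 0.26). Cpne5, a calcium-dependent phospholipid-binding protein, was at 6.50, 2.45 and 2.19 CPM in WT and 1.59, 1.19 and 1.27 CPM in KO (-1.46 ± 0.44), the lowest log2 fold change of any member, with WT1 far above the rest. Without WT1 it was -0.78.

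Some members have near-identical copies elsewhere in the genome, and reads of a copy and its member can be exchanged by the alignment. Reference transcripts of 124 counted genes outside the members matched a member at 95% identity or more over at least 80% of the copy, and 9 of these, copies of 7 members, had enough counts to be tested. Hmga1b, Atp6v0c-ps2 and Gm9825 were among the 5 genes that edgeR called over the whole series (adjusted p = 0.000176 for each). They are copies of Hmga1, Atp6v0c and Rnps1, whose own counts were higher in KO. Of the other 6 tested copies, Gm9761, a copy of Srsf3, was lower in KO without overlap, at 20, 18 and 16 counts in WT and 6, 8 and 15 in KO. Gm13443, a copy of Glo1, is described last.

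Atp6v0c encodes the ring subunit of the lysosomal proton pump (24163866 to 24169702, minus strand), and Atp6v0c-ps2 is a processed pseudogene on chromosome 6 (37806086 to 37806550). They differ at 1 base of the 465 aligned, T111C, counted from the A of the Atp6v0c start codon, with the member's base first. The stretch around it is shown because, within the aligned stretch, reads can be told apart at this base alone. Sequences are GENCODE M21 transcripts on GRCm38, 5′ to 3′, with the differing base in capitals; the first is at chr17:24164831-24164871 on the minus strand and the second at chr6:37806176-37806216 on the plus strand.
Atp6v0c: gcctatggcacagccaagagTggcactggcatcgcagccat
Atp6v0c-ps2: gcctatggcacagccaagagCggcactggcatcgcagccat

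Atp6v0c-ps2 had 284, 251 and 256 counts in WT and 3, 6 and 4 counts in KO. Of the reads assigned to the pair, the copy took 17.02% (95% Wilson interval 15.3% to 18.9%), 18.3% and 20.2% in WT and 0.20% (0.07% to 0.60%), 0.46% and 0.25% in KO, with intervals that cover counting error only. The share in every WT library was far above that in every KO library. Atp6v0c itself was at 40.5, 33.9 and 34.6 CPM in WT and 48.6, 44.4 and 49.7 CPM in KO (0.39 ± 0.09). Added together, member and copy came to 48.8, 41.5 and 43.3 CPM in WT and 48.7, 44.6 and 49.8 CPM in KO, and the groups overlapped.

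Rnps1 binds spliced messenger RNA at exon junctions (24414675 to 24425895, plus strand), and Gm9825 is a processed pseudogene on chromosome 6 (7981829 to 7983430). Over the 843 aligned bases they differ at C243A, C332T, T561C, T582C and C756T, on the same counting. The stretch with T561C and T582C is shown, at chr17:24422168-24422229 on the plus strand for Rnps1 and chr6:7982854-7982915 on the minus strand for the copy.
Rnps1: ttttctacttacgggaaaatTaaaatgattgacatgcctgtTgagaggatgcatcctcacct
Gm9825: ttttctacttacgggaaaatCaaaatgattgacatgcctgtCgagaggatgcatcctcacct

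Gm9825 had 462, 558 and 374 counts in WT and 28, 25 and 22 in KO, or 25.3%, 25.4% and 21.7% of the pair's reads in WT and 1.55%, 1.49% and 1.05% in KO. Rnps1 was at 39.9, 49.5 and 46.2 CPM in WT and 59.0, 56.0 and 64.1 CPM in KO (0.40 ± 0.10). The sums were 53.5, 66.4 and 59.0 CPM in WT and 59.9, 56.9 and 64.8 CPM in KO, again with overlap.

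Hmga1 encodes a chromatin protein that binds AT-rich DNA (27556620 to 27563674, plus strand), and Hmga1b is a protein-coding copy on chromosome 11 (120762794 to 120764419). The 3 differences between them all lie past the coding sequence. Hmga1b had 874, 649 and 542 counts in WT and 20, 18 and 11 in KO, or 41.0%, 19.2% and 17.8% of the pair's reads in WT and 0.65%, 0.67% and 0.33% in KO. Hmga1 was at 36.8, 82.5 and 85.6 CPM in WT and 101.4, 90.8 and 102.2 CPM in KO (0.52 ± 0.28). The sums were 62.3, 102.1 and 104.2 CPM in WT and 102.0, 91.5 and 102.6 CPM in KO. WT1 alone lay below the KO libraries in the sum, and without WT1 the log2 fold change of Hmga1 was 0.22. Hmga1 overlaps AI413582 on the opposite strand.

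**Figure D3:**
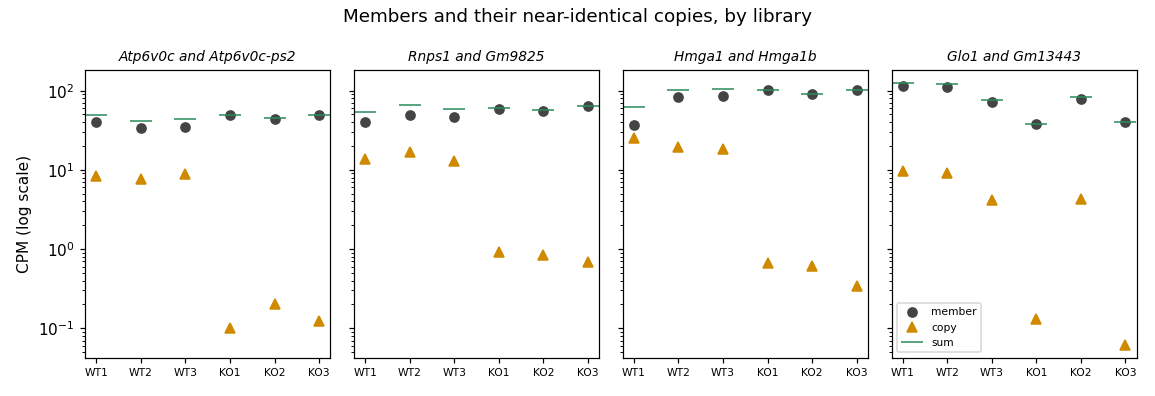
CPM on a log scale of 4 members (circles), their copies (triangles) and the sums (bars) in each library. The copies of Atp6v0c, Rnps1 and Hmga1 are below 1 CPM in all 3 KO libraries, while Gm13443 is below 1 CPM in KO1 and KO3 and at 4.34 CPM in KO2.

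Glo1 and its neighbour Dnah8 had the largest differences inside the 10-gene run, and their libraries did not sort by genotype. Glo1, which detoxifies methylglyoxal (30592866 to 30612659, minus strand), was at 116.2, 112.3 and 72.7 CPM in WT and 37.5, 77.9 and 39.6 CPM in KO (-0.96 ± 0.30). KO2 was above WT3, so the groups overlapped. The authors' deposited table called Glo1, while its edgeR adjusted p was 0.656. Relative to the WT mean, WT1 and WT2 were at 116% and 112%, WT3 and KO2 at 72.4% and 77.6%, and KO1 and KO3 at 37.3% and 39.5%.

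Dnah8, a heavy chain of the dynein of cilia and flagella (30624354 to 30875264, plus strand), was at 801.5, 889.0 and 623.4 CPM in WT and 363.8, 788.8 and 301.5 CPM in KO (-0.67 ± 0.34). As for Glo1, KO1 and KO3 were the lowest libraries, and the value was -1.21 without KO2 and -0.42 without KO3. It overlaps 1700097N02Rik on the opposite strand. Btbd9, the neighbour before Glo1, was lower in all 3 KO libraries. WT3 was its lowest WT library, as for Glo1, but its KO2 lay slightly below its KO3.

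Gm13443, a processed pseudogene on chromosome 2 (35340409 to 35340963), matches the Glo1 transcript at 99.5% over 555 bases.

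Gm13443 had 329, 302 and 122 counts in WT and 4, 128 and 2 counts in KO. It took 7.66% (6.90% to 8.49%), 7.53% and 5.42% of the pair's reads in WT and 0.35% (0.14% to 0.90%), 5.27% (4.45% to 6.23%) and 0.16% in KO. The share in KO2 thus lay within the interval of WT3, which was 4.56% to 6.44%. The log2 fold change was -2.35 ± 1.10, and without KO2 it was -6.25. The sums of Glo1 and Gm13443 were 125.8, 121.5 and 76.8 CPM in WT and 37.6, 82.3 and 39.7 CPM in KO, so adding the copy left the order as it was.

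The order in which WT1 and WT2 were the highest, WT3 and KO2 the middle and KO1 and KO3 the lowest libraries was noticed after the values were seen. It or its reverse held in 26 members (11.8%), beside 7.49% of all genes tested (3.44% in the order of Glo1 and 4.04% in the reverse) and 7.94% of the protein-coding genes under the same count rule. These genes included Eme2, Bnip1 and Pigq in the order of Glo1 and Gtf2h4, Pbx2 and Mlst8 in the reverse. Further genes outside the member list showed it with large steps, and were chosen after their values were seen. H2-Q10, a class I histocompatibility gene dropped by name (35470089 to 35474563), was at 3.37, 4.06 and 1.67 CPM in WT and 0.20, 2.13 and 0.25 CPM in KO. A930015D03Rik, a long noncoding RNA at the end of the interval (35994453 to 36038435), was at 21.7, 20.04 and 11.4 CPM in WT and 1.49, 10.8 and 1.33 CPM in KO. Gm11127, a protein-coding gene just past the interval (36055816 to 36058371), was at 19.6, 16.3 and 9.05 CPM in WT and 0.13, 8.67 and 0.16 CPM in KO. In each of these genes KO2 stood near WT3 and far from KO1 and KO3. What the libraries of each level share is not in the labels, and was not tested.

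**Figure D4:**
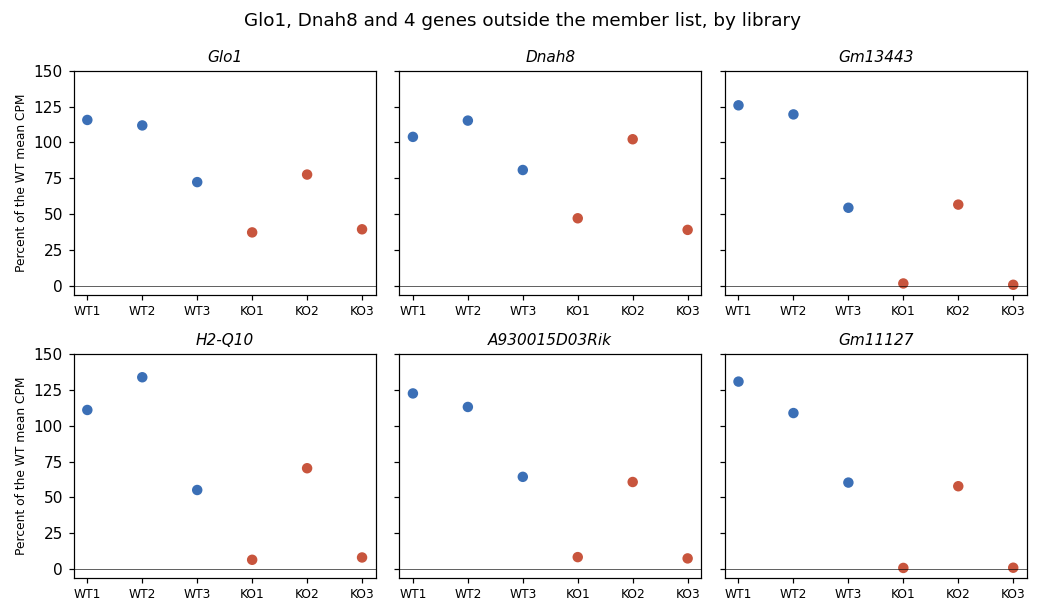
Level in each library as a percentage of the WT mean for Glo1, Dnah8, Gm13443, H2-Q10, A930015D03Rik and Gm11127 (WT blue, KO red; 1 point per library). WT3 and KO2 lie between the other WT libraries and KO1 and KO3 in all 6 panels; for Dnah8, KO2 at 102% is close to WT1 at 104%.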

How the data were processed

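RNA-seq counts of 6 libraries of sorted double-positive thymocytes (3 KO, 3 WT) were used. The submitters' processing notes name Trimmomatic 0.33, STAR 2.5.2, HTSeq, DESeq2 and build mm10; strand setting, counting mode and annotation version were not given in the sources used here. The authors deposited raw counts per gene, a normalized signal (each count times 1 constant per library), and log2 fold changes, a score (fold change over its error) and p-values from DESeq2, per the file headers. That table is named as paired, and what was paired is not given in the sources used here. Lines naming no gene stayed out of library sizes: reads without a feature were 12.3% to 15.2%, ambiguous reads 0.653% to 0.701% and reads with several alignments 22.6% to 23.9%.

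Counts were fitted over all 13039 genes that passed filterByExpr with edgeR 4.0.16 in R 4.3.3 (TMM, quasi-likelihood, group alone, two-sided, Benjamini-Hochberg, threshold 0.05), after a check on simulated data. The standard error is the absolute log2 fold change over the square root of F. Groups that do not overlap have all 3 KO libraries above or below all 3 WT libraries in CPM. DESeq2 1.42.0 and limma-voom (limma 3.58.1) were alternatives. Copies were found with BLAST 2.17.0 in GENCODE M21 transcripts. No library pair of a group agreed within sampling noise (chi-square per degree of freedom 17.3 or more). The same alternatives were added after seeing the data for 8 members named outside the rule.

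The members, the gene lists and the rule for naming genes were chosen with earlier results of these data known. The rule named up to 8 members per direction with the largest change among those without overlap and with a mean log2 CPM of at least 3, the genes of the longest runs without overlap, 2 members per list and members with a called copy. The file's gene lengths were not used.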

Additional observations from a re-analysis of the deposited data

How the results depend on the processing

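Scaling by DESeq2 size factors or the upper quartile left the calls over all genes at 5, and DESeq2's own test gave 105, limma-voom 7 and no filter on low counts 30. Leaving out each library in turn gave 4 to 23 calls, 51 to 84 members without overlap, since fewer libraries overlap less often, a median of the members of 0.010 to 0.034 and a longest run of equal sign of 8 to 11. Without WT3 the calls were 23, the members without overlap 84 (38.0%, beside 32.2% of all genes) and the median 0.034. Without WT1, KO2 or KO3 the members without overlap were 69, 75 and 61 (31.2%, 33.9% and 27.6%). The shares of all genes tested rose as well, to 25.2%, 25.004% and 22.6% in the same order. Without WT1 or KO2 the calls were 8 and 14. The median was -0.010 with upper-quartile scaling; the cause was not tested. Mettl14 kept its direction in all settings (-0.53 to -0.43 with a library left out) and was called by DESeq2 (-0.48, adjusted p = 0.00428). With at least 1000 counts, 33 of 197 members were without overlap (16.8%), and with the dropped genes kept 45 of 252 (17.9%). The share of all genes tested, to which the minimum of 1000 counts was not applied, was 12.6%. Of the log2 fold changes of named members under each alternative, 348 moved by less than 1 SD between replicates and none was reversed. Those of Dusp1 (-0.21) and Cpne5 (-0.78) without WT1 moved further, the second chosen after seeing the data. Adjusted p-values did cross the threshold: DESeq2 called Ergic1, Gnptg, Gtf2h4 and Vars2, edgeR called Gnptg with no filter on low counts, and edgeR called Gm13443 without KO2 (-6.25).

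Same-numbered libraries had correlations of their deviations from the group means of -0.19, 0.08 and 0.23. With 3 libraries per group sharing a mean, these values cannot decide whether the replicate numbers pair the libraries. With a replicate block the calls stayed at 5, the median was 0.02 and the longest run 11, and Mettl14 was at -0.49. Library 3 alone correlated best with its own number.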
